A study of Mus musculus with 14 samples.

Results

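The D cyclins, their kinases, inhibitors and pocket proteins were followed in 4 mouse beta-cell lines made to overexpress or knock down Sirt1. The members were 10 genes fixed by symbol: the D cyclins Ccnd1, Ccnd2 and Ccnd3, the kinases Cdk4 and Cdk6, the inhibitors Cdkn1b and Cdkn2c, and the pocket proteins Rb1, Rbl1 and Rbl2. Every probe whose only platform symbol, updated through its Entrez identifier, was a member was taken. This gave 11 probes of the 23232 on the array (10 of 15099 genes with a probe named for them alone), 2 for Ccnd2 and 1 for each of the other 9 genes, and all 11 had a value on every array. The set was chosen partly from measured log2 ratios of these arrays, among them the calls of Ccnd2 in all 4 lines and of Rbl2 in the knockdown lines. Those values are given as a description, and nothing is supported with them.

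D cyclins bind CDK4 or CDK6 in the G1 phase and so form the kinases that phosphorylate the pocket proteins. Unphosphorylated pocket proteins (pRB from Rb1, p107 from Rbl1, p130 from Rbl2) hold E2F transcription factors in check, and p130 with E2F4 is the form typical of resting cells. The INK4 inhibitor p18 (Cdkn2c) blocks CDK4 and CDK6 themselves, while p27 (Cdkn1b) acts mainly on cyclin-bound CDK2. In mouse beta cells, cyclin D2 is the D cyclin on which growth of beta-cell mass after birth most depends, and p27 and p18 restrain that growth.

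All lines came from MIN6, an insulin-secreting mouse beta-cell line, taken at passage 24. Sir2OE2 and Sir2OE1 carried a pBabe retrovirus with mouse Sirt1, selected with G418 at 280 micrograms per ml, and were set against pooled RNA of Neo1 and Neo2, which carried the pBabe-neo control retrovirus. Sir2KD2 and Sir2KD1 carried mU6pro vectors for a pair of small interfering RNAs against Sirt1 with a neomycin-resistance plasmid, selected at 400 micrograms per ml, and were set against the line mU6pro made with the empty vector. All lines, controls included, grew for 4 days in 5 mM glucose before RNA was taken. Sir2OE2 and Sir2KD2 were measured on 4 two-colour arrays each, and Sir2OE1 and Sir2KD1 on 3 each. Whether a line is a single clone is not stated. Arrays of a line are not described as separate cultures, so their spread may be technical, and both lines of either kind were compared with the same control RNA. The number of arrays limits the precision, and there is no signal level in the values, so neither the amount of any transcript nor the beta-cell identity of the lines could be read.

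The deposited values are log2 ratios of the channels. The sign was reversed wherever the line was in channel 1, and the result is called the turned log2 ratio. The sources used here do not state which channel is on top of the deposited ratio. A value on the minus side therefore means less RNA in the modified line if channel 2 is on top and more if channel 1 is, and the values below have sizes and sides but no settled direction. The targeted gene did not settle it: the Sirt1 probe passed the test in no line, with fitted turned log2 ratios of -0.33 ± 0.10 in Sir2OE2, 0.08 ± 0.12 in Sir2OE1, 0.12 ± 0.10 in Sir2KD2 and -0.10 ± 0.12 in Sir2KD1 (SE, n = 4, 3, 4 and 3 arrays). Calls below are from limma over all 23230 probes tested, at a Benjamini-Hochberg adjusted p under 0.05.

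Nor do the sources state whether the deposited values had already been put the same way up, so every turned value below is conditional on the turn. The deposited values had been centred per probe, and the channel ratios before centring were recovered as whole percents. Over all probes whose mean recovered log2 ratio was over 1 in size in both channel orders, 38.8% (191 of 492) lay on opposite sides of 1 in Sir2OE2, 16.3% (127 of 778) in Sir2OE1, 13.2% (123 of 931) in Sir2KD2 and 48.1% (359 of 747) in Sir2KD1. Most such probes thus stayed on the same side when the channels were exchanged. Ccnd2 and Rbl2 were chosen because their turned values were called, so their change of side was fixed by that choice, and their ratios are given as a description that does not show the turn to be right. For Rbl2 in the knockdown arrays the recovered ratio was 0.16 to 0.19 on the 3 arrays with the line in channel 2 and 4.98 to 8.4 on the 4 arrays with the line in channel 1. In the overexpression arrays the same probe stayed near 1, at 0.85 to 1.42 with the line in channel 2 and 1.36 to 1.71 with it in channel 1. Ccnd2 changed sides in both kinds. Its probe 18010 read 0.45 to 0.78 and 0.39 to 0.64 with the overexpressing and knockdown lines in channel 2, and 1.83 to 2.25 and 1.49 to 3.21 with them in channel 1. Its probe 21619 read 0.53 to 0.72 and 0.42 to 0.59, and 1.69 to 2.19 and 2.07 to 2.6, in the same order. No Ccnd2 array lay on the side of 1 taken by the other channel order. The recovered percents are the smallest whole numbers in the right proportion, so each probe keeps an unknown constant factor within a kind.

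**Figure D1:**
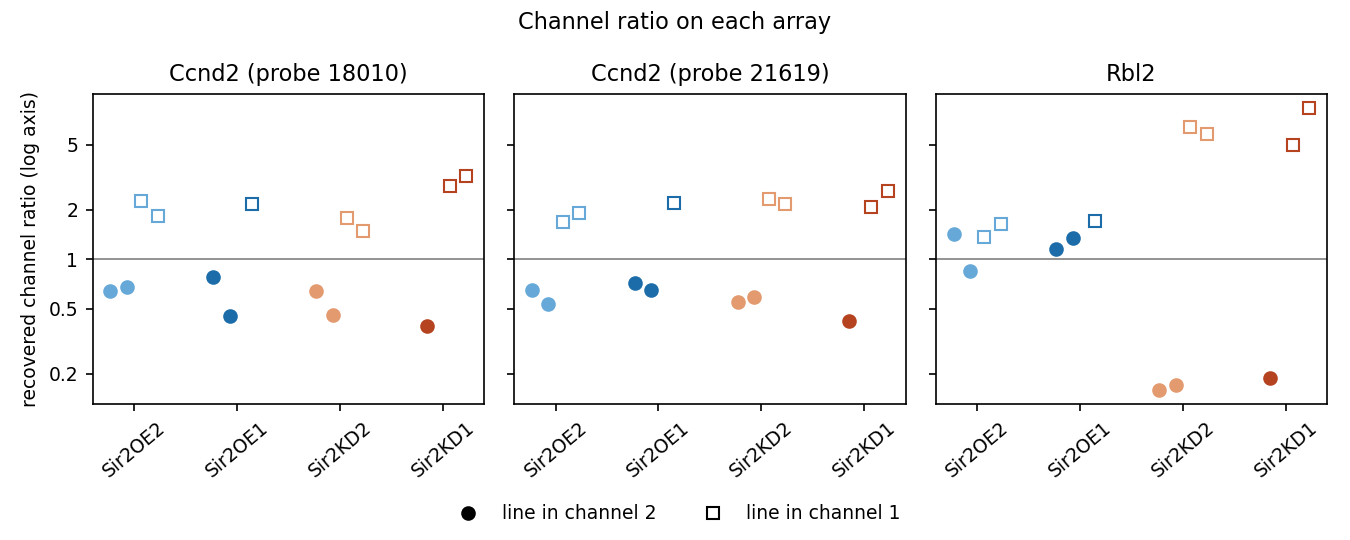
Recovered channel ratio on each of the 14 arrays (log axis, 1 marked by the line) for both Ccnd2 probes and the Rbl2 probe, by line; filled circles are arrays with the line in channel 2 and open squares those with the line in channel 1. Both Ccnd2 probes lie below 1 with the line in channel 2 and above 1 with it in channel 1 in all 4 lines, and Rbl2 does so widely in the knockdown lines, from 0.16 to 8.4.

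Of the 10 genes, 2 passed the threshold in any line, Ccnd2 and Rbl2. Ccnd2 was on the minus side with both probes in all 4 lines, and Rbl2 with its probe in Sir2KD2 and Sir2KD1. The other 8 genes passed in no line, and 26 of their 32 fitted values lay within 0.25 of 0. By line, 2 of 11 probes were called in Sir2OE2, where 2.81% of all probes were called, and 2 in Sir2OE1, against 1.06% of all probes. In Sir2KD2 3 were called, against 1.34%, and in Sir2KD1 3, against 3.59%. All of these were on the minus side, which held 1.38%, 0.594%, 0.74% and 1.98% of all probes as calls in Sir2OE2, Sir2OE1, Sir2KD2 and Sir2KD1, where the plus side held 1.43%, 0.469%, 0.603% and 1.6%. Since the members were proposed with these calls known, the counts are not read against those shares. The median fitted value over the 11 probes was -0.09 in Sir2OE2, -0.14 in Sir2OE1, 0.10 in Sir2KD2 and -0.11 in Sir2KD1, where the medians over all probes were 0.00, 0.00, 0.00 and 0.02.

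**Figure D2:**
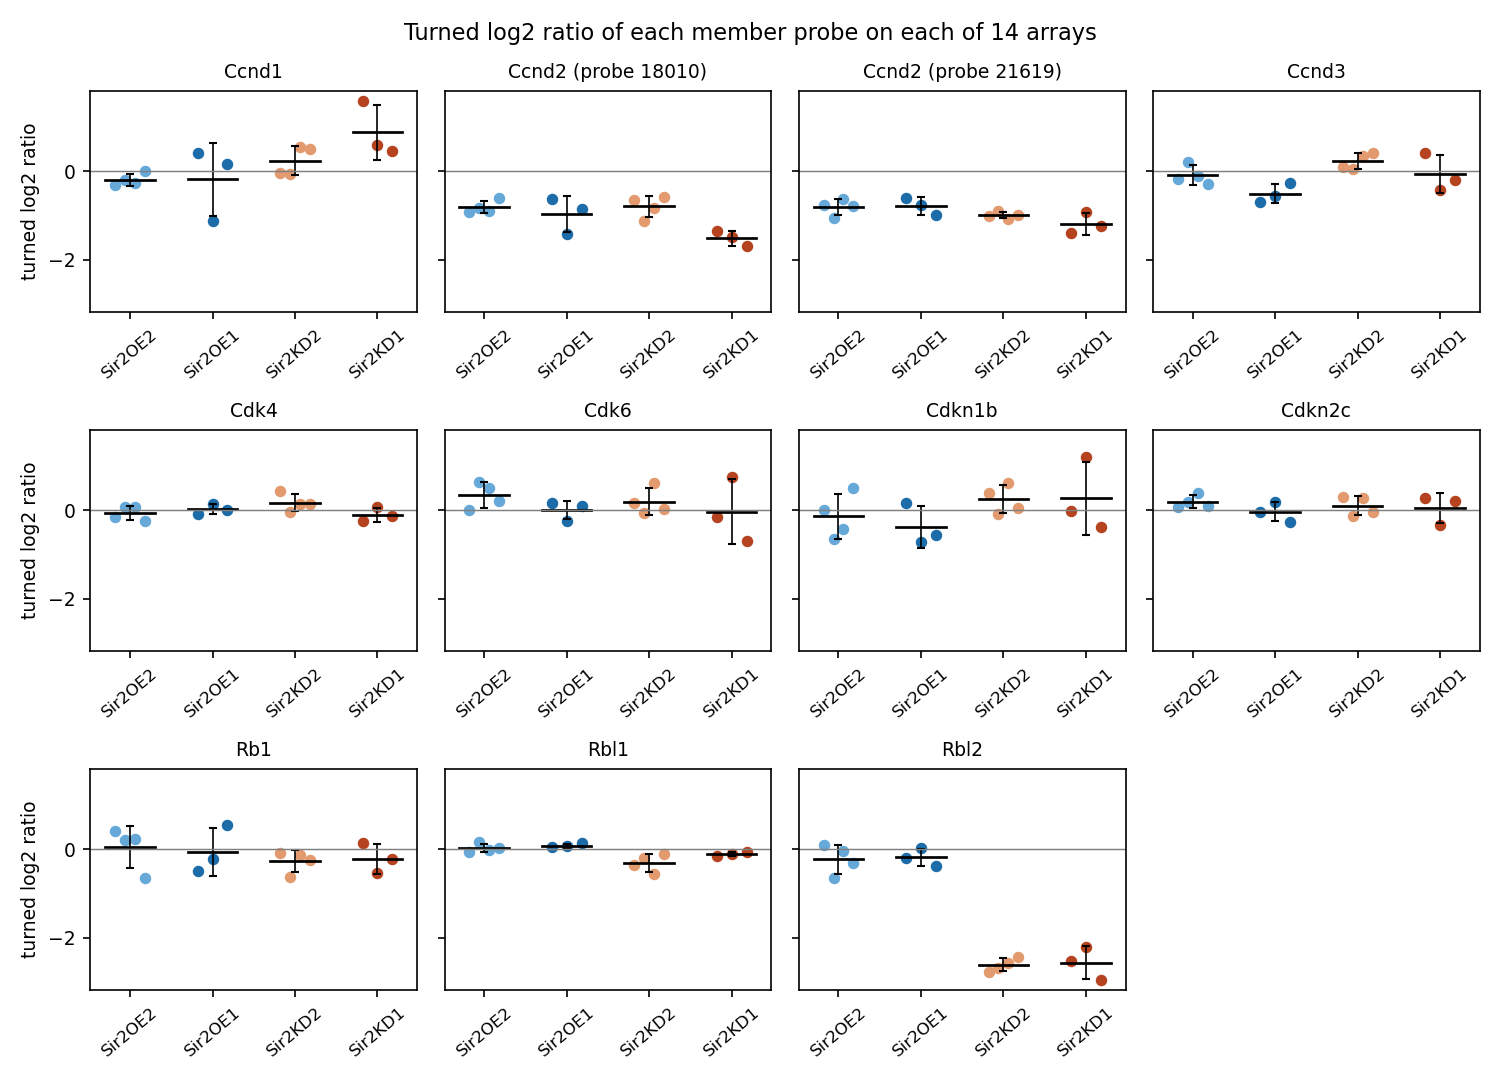
Turned log2 ratio of each of the 11 probes on each of the 14 arrays, by line; points are arrays, the black bar is the mean and the error bar 1 SD (n = 4 arrays for Sir2OE2 and Sir2KD2, n = 3 for Sir2OE1 and Sir2KD1). Both Ccnd2 probes lie below 0 on all 14 arrays and Rbl2 between -2.96 and -2.20 on the 7 knockdown arrays, while the other probes scatter around 0.

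Among the D cyclins, Ccnd2 stood apart from Ccnd1 and Ccnd3. On probe 18010 its turned log2 ratios were -0.91, -0.82, -0.90 and -0.61 in Sir2OE2 and -0.62, -1.42 and -0.85 in Sir2OE1. On the same probe they were -0.64, -1.11, -0.84 and -0.58 in Sir2KD2 and -1.35, -1.48 and -1.69 in Sir2KD1. All 14 arrays were on the minus side. The 3 Sir2KD1 arrays lay below all 4 Sir2KD2 arrays, but the difference was not called (limma adjusted p = 0.217). How many of all probes separate these lines in this way was not counted. The fitted values were -0.81 ± 0.14 in Sir2OE2, -0.94 ± 0.17 in Sir2OE1, -0.79 ± 0.14 in Sir2KD2 and -1.51 ± 0.17 in Sir2KD1 (SE, n = 4, 3, 4 and 3 arrays), sizes of 1.75-fold, 1.92-fold, 1.73-fold and 2.85-fold.

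The other Ccnd2 probe, 21619, gave -0.76, -1.05, -0.62 and -0.79 in Sir2OE2 and -0.61, -0.76 and -0.997 in Sir2OE1. It gave -1.003, -0.90, -1.07 and -0.98 in Sir2KD2 and -1.39, -0.91 and -1.24 in Sir2KD1. Again all 14 arrays were on the minus side, and here the knockdown lines overlapped. The fitted values were -0.81 ± 0.12 in Sir2OE2, -0.79 ± 0.14 in Sir2OE1, -0.99 ± 0.12 in Sir2KD2 and -1.19 ± 0.14 in Sir2KD1 (SE), sizes of 1.75-fold, 1.73-fold, 1.99-fold and 2.29-fold. The probes thus gave the same side in every line. Across the 14 arrays, on each of which both probes were read together and of which those of a kind share a control RNA, their turned ratios had Pearson r = 0.389. Of all probes, 18 (0.0775%) had a call of equal sign in every line, and both Ccnd2 probes were among them.

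The Ccnd2 call in Sir2OE1 was lost under several alternatives, while its size changed less. Without Sir2OE1 slide 2 or slide 3, or Sir2OE2 slide 1, neither Ccnd2 probe was called in Sir2OE1. Without Sir2OE1 slide 1 or Sir2OE2 slide 2 or 3 a single Ccnd2 probe was called there, and with the slide number as a replicate block neither was. The fitted values in Sir2OE1 stayed on the minus side under all alternatives that kept the turn, between -1.13 and -0.73 on probe 18010 and between -0.88 and -0.58 on probe 21619. Without Sir2OE2 slide 1 they were -0.94 and -0.78. In Sir2OE2 probe 21619 was called without any of the 14 arrays in turn, and probe 18010, at -0.92 to -0.74 over the same alternatives, was not called without slide 1, 2 or 3 of that line. In Sir2KD1 both probes were called without any array in turn. In Sir2KD2 probe 18010 was not called without any 1 of that line's own 4 slides or without Sir2OE2 slide 1. Under these settings its fitted value in Sir2KD2 stayed between -0.88 and -0.66.

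Ccnd1 encodes cyclin D1, the D cyclin most responsive to growth factors. Its turned log2 ratios were -0.31, -0.19, -0.27 and 0.00 in Sir2OE2 and 0.40, -1.13 and 0.17 in Sir2OE1. They were -0.04, -0.05, 0.55 and 0.50 in Sir2KD2 and 1.59, 0.60 and 0.46 in Sir2KD1. The Sir2OE1 arrays fell on both sides of 0, and the Sir2KD1 arrays were all on the plus side with slide 1 far above the others. The fitted value in Sir2KD1 was 0.90 ± 0.30 (SE, n = 3), not past the threshold, and it was 0.24 without slide 1 of that line. Only slide 1 had Sir2KD1 in channel 2. Without it the dye term came from the Sir2KD2 arrays alone, so 0.24 lies below the 0.60 and 0.46 of the arrays left. The other fitted values were -0.19 in Sir2OE2, -0.14 in Sir2OE1 and 0.24 in Sir2KD2.

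Ccnd3 encodes cyclin D3. It read -0.18, 0.22, -0.11 and -0.29 in Sir2OE2 and -0.69, -0.56 and -0.26 in Sir2OE1. It read 0.10, 0.05, 0.34 and 0.41 in Sir2KD2 and 0.41, -0.42 and -0.19 in Sir2KD1. All 3 Sir2OE1 arrays were on the minus side and all 4 Sir2KD2 arrays on the plus side, while the other lines held both signs. The fitted values ran from -0.50 ± 0.18 in Sir2OE1 to 0.22 ± 0.15 in Sir2KD2 (SE, n = 3 and 4), and neither passed.

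The kinase partners gave no call. Cdk4, the main D-cyclin kinase of mouse beta cells, kept within a narrow band, from -0.25 to 0.42 over the 14 arrays. Its fitted values were -0.07 ± 0.11 in Sir2OE2, 0.02 ± 0.13 in Sir2OE1, 0.17 ± 0.11 in Sir2KD2 and -0.11 ± 0.13 in Sir2KD1 (SE, n = 4, 3, 4 and 3 arrays). Each line's arrays held both signs. Cdk6, the related kinase, was more scattered, from -0.70 to 0.75, and both extremes were Sir2KD1 arrays. Its fitted values ran from -0.08 ± 0.25 in Sir2KD1 to 0.34 ± 0.21 in Sir2OE2, where its 4 arrays were at 0.00, 0.64, 0.50 and 0.21.

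Neither inhibitor passed in any line. Cdkn1b had a wide spread between arrays, from -0.722 to 1.199, and every line held both signs. Its fitted values were -0.14 ± 0.27 in Sir2OE2, -0.36 ± 0.32 in Sir2OE1, 0.25 ± 0.27 in Sir2KD2 and 0.23 ± 0.32 in Sir2KD1 (SE, n = 4, 3, 4 and 3 arrays). Its 95% interval in Sir2KD1 ran from -0.48 to 0.93. Cdkn2c was tighter, between -0.33 and 0.39 on all arrays, with fitted values of 0.19 ± 0.14 in Sir2OE2, -0.05 ± 0.16 in Sir2OE1, 0.10 ± 0.14 in Sir2KD2 and 0.08 ± 0.16 in Sir2KD1.

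**Figure D3:**
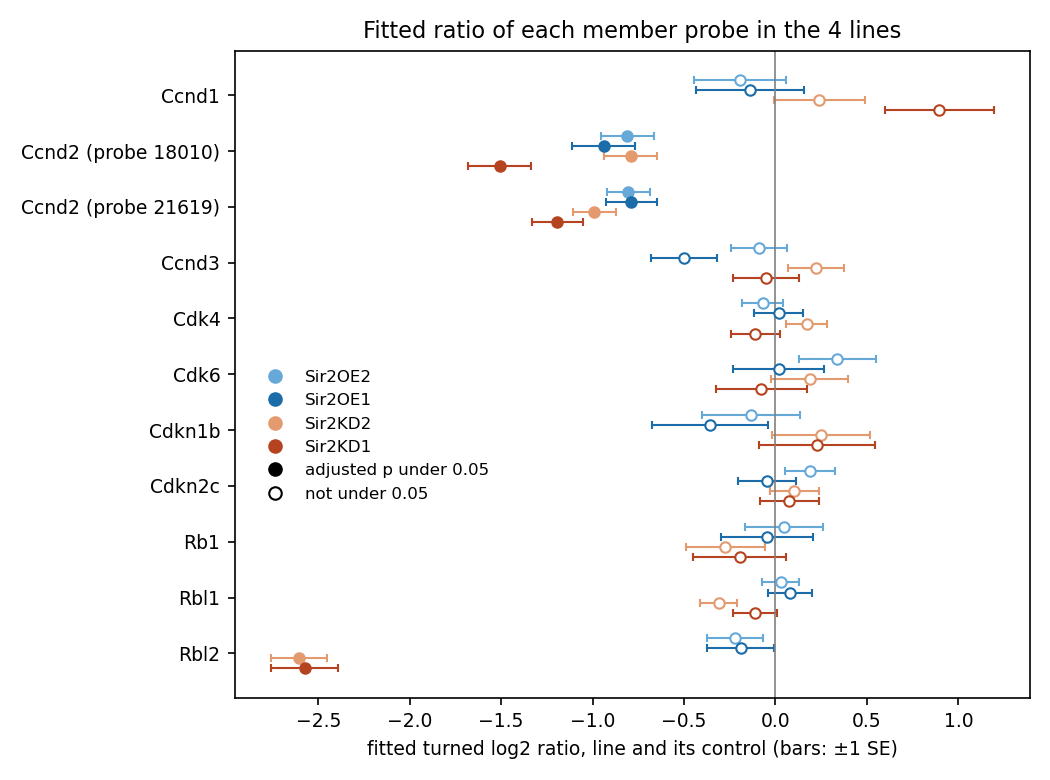
Fitted turned log2 ratio of each of the 11 probes in the 4 lines, from limma over all 14 arrays; bars are 1 SE, filled points have an adjusted p under 0.05. The filled points are the Ccnd2 probes in all 4 lines, from -1.51 to -0.79, and Rbl2 in the knockdown lines, at -2.60 and -2.57.

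Of the pocket proteins, Rbl2 was far on the minus side in the knockdown lines, and Rb1 and Rbl1 passed in no line. Rbl2 encodes p130. Its turned log2 ratios were -2.76, -2.67, -2.56 and -2.42 in Sir2KD2 and -2.51, -2.20 and -2.96 in Sir2KD1. The 7 arrays lay close together, and the ranges of the lines overlapped. The fitted values were -2.60 ± 0.15 in Sir2KD2 and -2.57 ± 0.18 in Sir2KD1 (SE, n = 4 and 3 arrays), sizes of 6.08-fold and 5.95-fold. By size they ranked 13 and 39 of the 23230 probes in those lines. Of all probes, 153 (0.659%) had calls of equal sign in Sir2KD2 and Sir2KD1. The Rbl2 call in both lines held without any of the 14 arrays in turn.

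In the overexpressing lines Rbl2 read 0.10, -0.64, -0.04 and -0.31 in Sir2OE2 and -0.19, 0.02 and -0.37 in Sir2OE1. These 7 arrays lay on both sides of 0 and did not overlap with the knockdown arrays. Rbl2 was chosen with its knockdown calls known, which favours such a gap, and how many of all probes show one was not counted. The fitted values were -0.22 ± 0.15 in Sir2OE2 and -0.19 ± 0.18 in Sir2OE1 (SE, n = 4 and 3 arrays), not past the threshold. Their 95% intervals were -0.56 to 0.12 and -0.59 to 0.21. Rbl2 is read from a single probe, so its ratio has no second probe beside it.

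Rbl1 encodes p107, the pocket protein closest to p130. It stayed between -0.57 and 0.15 on all arrays, with -0.05, 0.15, -0.03 and 0.04 in Sir2OE2 and 0.04, 0.07 and 0.13 in Sir2OE1. In the knockdown lines it read -0.37, -0.21, -0.57 and -0.10 in Sir2KD2 and -0.16, -0.12 and -0.06 in Sir2KD1. All 7 knockdown arrays were thus on the minus side, by small amounts. The fitted values were -0.31 ± 0.10 in Sir2KD2 and -0.11 ± 0.12 in Sir2KD1 (SE), neither past the threshold, and the 95% interval in Sir2KD2 was -0.54 to -0.09. Rb1, which encodes the retinoblastoma protein, was wider, from -0.65 to 0.55. Its fitted values were 0.05 ± 0.21 in Sir2OE2, -0.05 ± 0.25 in Sir2OE1, -0.27 ± 0.21 in Sir2KD2 and -0.20 ± 0.25 in Sir2KD1, and its 4 Sir2KD2 arrays were all on the minus side.

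The promoters of Rbl2 and Rbl1 are shown because they are sister genes of which Rbl2 alone was called. Both are RefSeq sequences of build GRCm38.p6, 250 bases before to 50 after the gene's start, read along the gene 5′ to 3′. Rbl2 lies at chr8:91069807-91070106 on the plus strand and Rbl1 at chr2:157204485-157204784 on the minus strand. Capitals mark matches, on either strand, to 6 motifs: E2F (TTTCCCGC, TTTGGCGC, TTTCGCGC or TTTGCCGC), FoxO (GTAAACA), the E-box CACGTG, the CCAAT box (CCAAT), the GC box (GGGCGG) and the cell-cycle homology region or CHR (TTTGAA). Matches of different motifs did not overlap in these promoters.
Rbl2: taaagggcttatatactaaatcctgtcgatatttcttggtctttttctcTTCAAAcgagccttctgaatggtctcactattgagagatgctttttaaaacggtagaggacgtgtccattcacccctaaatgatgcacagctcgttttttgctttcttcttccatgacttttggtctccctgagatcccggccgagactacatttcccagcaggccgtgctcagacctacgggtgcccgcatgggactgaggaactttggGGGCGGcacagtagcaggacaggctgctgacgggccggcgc
Rbl1: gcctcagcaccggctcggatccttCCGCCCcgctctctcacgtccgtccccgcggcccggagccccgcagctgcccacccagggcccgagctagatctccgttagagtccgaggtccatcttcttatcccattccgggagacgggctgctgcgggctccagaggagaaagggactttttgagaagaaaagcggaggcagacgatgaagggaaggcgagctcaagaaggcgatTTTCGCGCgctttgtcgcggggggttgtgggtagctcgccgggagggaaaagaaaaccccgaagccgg
The Rbl1 window held an E2F match at position -18 from the gene's start, and the Rbl2 window held none. The Rbl2 window held a CHR match at position -201, and the Rbl1 window none. Both windows held a GC box, at position 10 in Rbl2 and at position -226 in Rbl1. Of 32851 mouse promoters of this length, 2.26% held an E2F match, 17.9% a CHR match, 35.7% a GC box and 3.65% a FoxO match. Of the 10 genes, 7 had a promoter in the table used, and Rbl1 alone of them had an E2F match and Ccnd3 alone a FoxO match. The table had no entry for Ccnd1, Ccnd2 and Rb1. A match is a run of letters and not a measured site.

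Differences between lines of a kind are computed from the same per-line values from which Ccnd2 and Rbl2 were chosen, and choosing genes called on 1 side in both lines favours small differences. They are therefore given as a description for those genes. For Sir2OE2 minus Sir2OE1, limma called 0 of the 11 probes, where 0.323% of all probes were called, and for Sir2KD2 minus Sir2KD1 it called 0 of 11, where 0.689% of all probes were called. Of these 22 differences 1 had an unadjusted p under 0.05, that of Ccnd2 probe 18010 for Sir2KD2 minus Sir2KD1. That difference was 0.72 ± 0.22 (SE, n = 4 and 3 arrays), with a 95% interval of 0.22 to 1.21, while probe 21619 gave 0.20 ± 0.18. For Rbl2 the difference between Sir2KD2 and Sir2KD1 was -0.03 ± 0.24, with a 95% interval of -0.56 to 0.50. For Ccnd2 the difference between Sir2OE2 and Sir2OE1 was 0.13 ± 0.22 on probe 18010 and -0.02 ± 0.18 on probe 21619, with 95% intervals of -0.37 to 0.62 and -0.42 to 0.39. Among the other 8 genes the lowest limma adjusted p was 0.811 between the overexpressing lines, for Ccnd3 at 0.41 ± 0.24, and 0.574 between the knockdown lines, for Ccnd1 at -0.66 ± 0.39.

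Between the kinds, Rbl2 alone was called among the 11 probes, where 2.66% of all probes were called (1.54% on the plus and 1.12% on the minus side), provided that the same channel is on top in both. Overexpression minus knockdown was 2.38 ± 0.17 for Rbl2 (SE, n = 7 arrays each). For Ccnd2 it was 0.28 ± 0.16 on probe 18010 and 0.30 ± 0.13 on probe 21619, neither called. Were channel order the opposite in the knockdown ratios, both Ccnd2 probes would lie on opposite sides in the kinds, and 3 probes would be called. With the line as the unit, 2 lines a kind, limma called 0 of 23230 probes for either kind. Unadjusted p-values under 0.05 were then found for 1623 probes in the overexpressing lines, both Ccnd2 probes among them, and for 2361 in the knockdown lines. The knockdown ones held 4 of the 11 probes, those of Ccnd1, Ccnd2 and Rbl2. Ccnd2 and Rbl2 were chosen from the same per-line values, which favours low p-values here, so nothing is read from their presence.

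Other genes of the same pathway were followed from 6 lists of 68 genes, of which 59 were measured, by 64 probes. These lists too were drawn up with earlier results known. In Sir2OE2 3 of the 64 probes were plus-side calls and 1 a minus-side call, against 1.43% and 1.38% of all probes. In Sir2OE1 limma called 0, against 1.06% of all probes. In Sir2KD2 1 was called on the plus side, against 0.603% of all probes, and in Sir2KD1 2 on the minus side, against 1.98%. For overexpression minus knockdown limma called 2 on the minus side, against 1.12%, and 23 had an unadjusted p under 0.05. By line, 16, 8, 5 and 12 had such a p in Sir2OE2, Sir2OE1, Sir2KD2 and Sir2KD1. How many of all probes had such a p was not counted, here or for the lists below. Given how the lists were drawn up and how few the calls are, these counts are not read against those shares.

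E2F4, the partner of p130 in resting cells, was on the minus side in Sir2KD1, with a fitted value of -1.01 ± 0.16 for E2f4 (SE, n = 3; limma adjusted p = 0.00673). It read -0.13 ± 0.14 in Sir2KD2, -0.41 ± 0.14 in Sir2OE2 and -0.12 ± 0.16 in Sir2OE1, not called. It was the single call among 7 probes of E2F factors and partners, where 3.59% of all probes were called in Sir2KD1.

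Among 23 probes of 22 E2F target genes of replication and mitosis, 4 were called in Sir2OE2, where 2.81% of all probes were called, and 0 in the other lines. For Sir2OE2 minus Sir2OE1 limma called 0 of them, with 3 at an unadjusted p under 0.05, so the lines were not shown to differ. They were the topoisomerase Top2a at 0.97 ± 0.18 (limma adjusted p = 0.0154), the mitotic kinase Cdk1 at 0.79 ± 0.13 (adjusted p = 0.00716) and the helicase subunit Mcm7 at 0.54 ± 0.09 (adjusted p = 0.0101) on the plus side, and the helicase subunit Mcm2 at -0.68 ± 0.11 (adjusted p = 0.00738) on the minus side. These genes therefore took both sides in the same line. In Sir2OE1 the same probes read 0.20, 0.08, 0.03 and -0.34. The list's median was 0.09 in Sir2OE2 and 0.04 in Sir2OE1, and 0.08 in Sir2KD2 and 0.03 in Sir2KD1.

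Of 17 probes for regulators of these genes in beta cells, 1 was called in Sir2KD2, where 1.34% of all probes were called, and 1 in Sir2KD1, against 3.59%. The glycogen synthase kinase gene Gsk3b, whose product marks cyclin D1 for destruction, was at 1.31 ± 0.23 in Sir2KD2 on probe 23155 (SE, n = 4; limma adjusted p = 0.0225) and at 1.07 ± 0.27 in Sir2KD1 (adjusted p = 0.0633). Its other probes were not called, at 0.67 and 0.26 in Sir2KD2 and 0.53 and 0.39 in Sir2KD1, on the same side. Foxo1, a forkhead factor under insulin signalling, was at -0.60 ± 0.13 in Sir2KD1 (SE, n = 3; limma adjusted p = 0.0342) and at 0.01 in Sir2KD2. The lists of other CDK inhibitors (5 probes), later G1 and S cyclins (8) and DREAM and MuvB subunits (4) had 0 calls by limma in any line. By line, 0 to 3, 1 to 2 and 0 probes of each had an unadjusted p under 0.05. The share of all probes with such a p was not counted, so nothing is read from these.

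**Figure D4:**
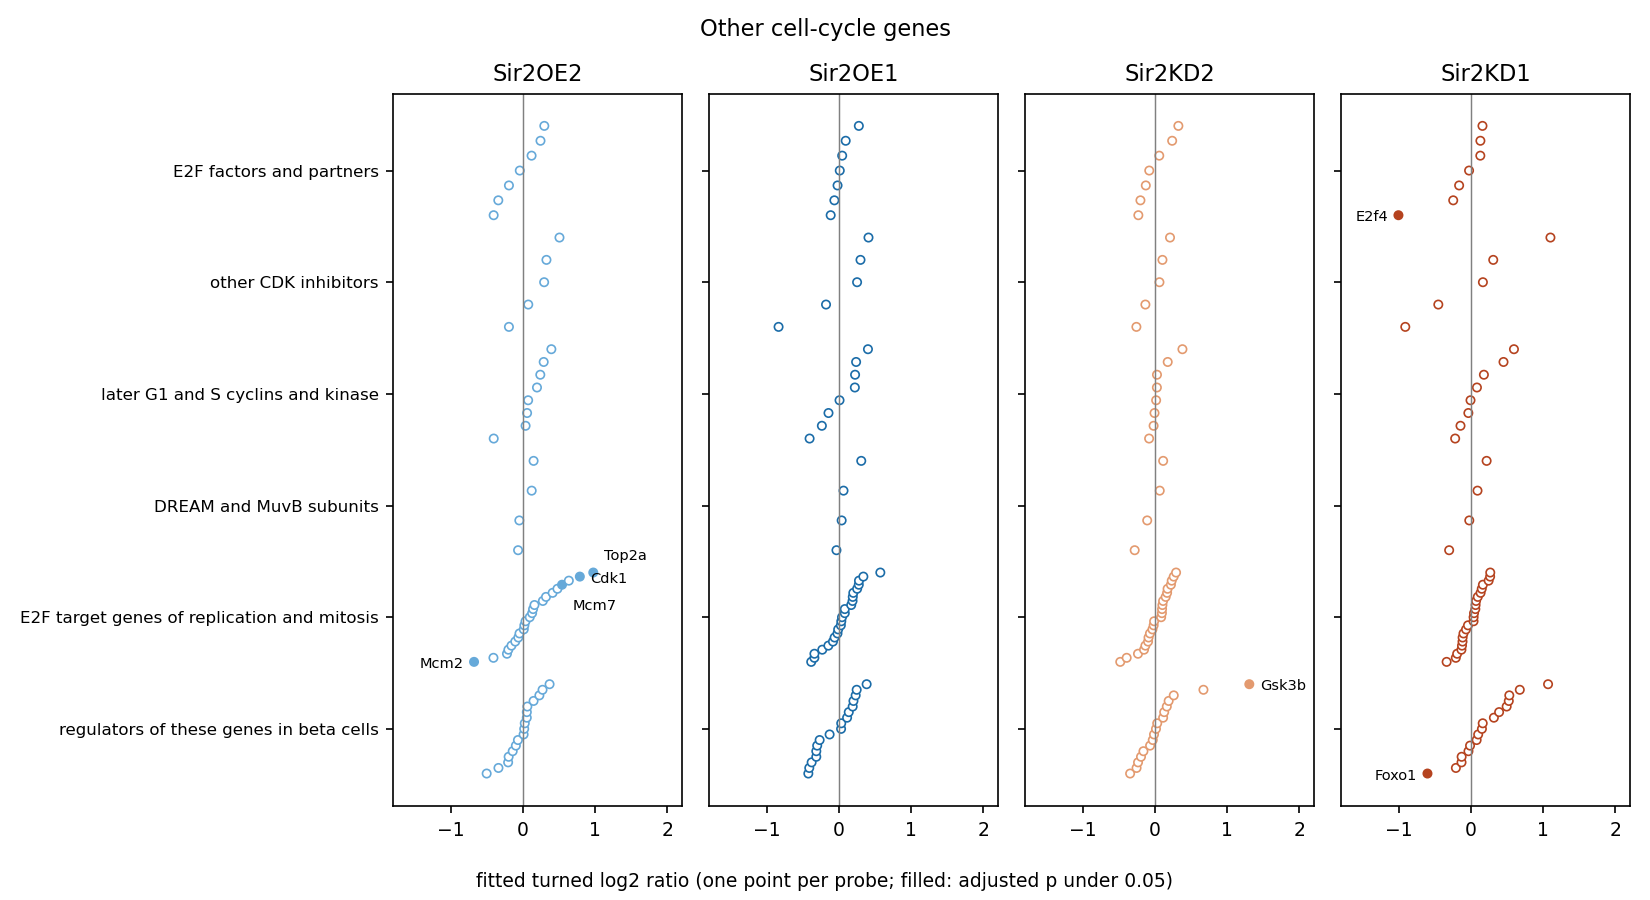
Fitted turned log2 ratios of 64 probes for other cell-cycle genes, in 6 lists and 4 lines; each point is a probe, and filled, named points have an adjusted p under 0.05. The 7 filled points are Top2a, Cdk1, Mcm7 and Mcm2 in Sir2OE2, Gsk3b in Sir2KD2, and E2f4 and Foxo1 in Sir2KD1.

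The genes whose turned ratios followed Rbl2 most closely over the 14 arrays were Serpina1a (Pearson r = 0.9754), Serpina1e (0.972), Arid1b (0.970), Dapl1 (0.970) and Gng13 (0.968). Serpina1a and Serpina1e, near-identical alpha-1-antitrypsin paralogs whose probes may read each other, were at -3.34 and -3.89 in Sir2KD2 and -3.99 and -4.26 in Sir2KD1, and on the plus side in the overexpressing lines. Arid1b, a chromatin remodeller subunit, was at -1.60 and -1.46 in Sir2KD2 and Sir2KD1. Dapl1 read -1.22, -1.24, -2.07 and -2.01 in Sir2OE2, Sir2OE1, Sir2KD2 and Sir2KD1. In the same order Gng13 read 0.23, 0.31, -0.28 and -0.18. A high r with Rbl2 therefore did not mean a like size or side in each line. For Ccnd2 probe 18010, the closest genes were Pnmal1 (r = 0.933), Rasa2 (0.927), Hic2 (0.921), Ppp1r10 (0.901) and Bcl2l2 (0.895). For probe 21619 they were Agpat4 (0.919), Zpbp (0.911), 1110001P04Rik (0.9015), 4933430M04Rik (0.872) and Rest (0.871). The Ccnd2 probes shared none of their 5 closest genes. In Sir2OE2, Sir2OE1, Sir2KD2 and Sir2KD1, Pnmal1 read 0.07, -0.01, 0.16 and -0.82, and Rasa2 -0.20, -0.25, -0.07 and -0.57. In the same order Agpat4 read 0.22, 0.11, -0.17 and -0.66, and Zpbp 0.33, 0.33, -0.06 and -0.17. Hic2 read -0.02, -0.02, -0.07 and -1.16 in that order. Of the genes closest to the Ccnd2 probes, Rasa2 and Hic2 alone were on the minus side in every line, as Ccnd2 was. Each r is across arrays of which those of a kind share a control RNA.

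Markers of other cells were followed as shifts alone. Of 7 beta-cell marker probes (6 genes), 1 was called in Sir2OE2 and 1 in Sir2OE1, both on the minus side, where 2.81% and 1.06% of all probes were called. In Sir2KD2 1 was called on either side, against 1.34% of all probes, and in Sir2KD1 1 on the plus and 2 on the minus side, against 3.59%. The list's medians were -0.12 in Sir2OE2, -0.21 in Sir2OE1, -0.07 in Sir2KD2 and -0.44 in Sir2KD1. The called markers are named here after their values were seen. The glucose transporter Slc2a2 was called in all 4 lines, at -1.50, -0.90, -0.89 and -2.08 in Sir2OE2, Sir2OE1, Sir2KD2 and Sir2KD1. The beta-cell factor Pdx1 was called at -0.77 in Sir2KD1, and read -0.12, 0.12 and -0.50 in Sir2OE2, Sir2OE1 and Sir2KD2, not called. The markers without a call took both sides. In Sir2OE2, Sir2OE1, Sir2KD2 and Sir2KD1, Nkx6-1 read 0.42, 0.09, 0.25 and 0.37. In the same order Iapp read -0.41, -0.21, 0.04 and 0.07, and Ins2 read -0.35, -0.21, -0.07 and -0.44. The peptide hormone Ucn3 was called on probe 19772 at 2.62 in Sir2KD2 and 2.86 in Sir2KD1, while its other probe read -0.40 and -0.95 there and was not called. Of 8 markers of other islet cells, endothelium, blood and fibroblasts, limma called 0 in any line, with 0 to 2 at an unadjusted p under 0.05 and list medians between -0.23 and 0.07. The part of either list in the Ccnd2 and Rbl2 ratios was not tested.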

How the data were processed

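RNA of each line and of its control was hybridised together on two-colour arrays, 14 in all. The authors deposited log2 channel ratios, which the values show to be centred per probe within each kind of perturbation; the sources used here do not name the software or background correction. Probes took their genes from the platform annotation of 2007, with symbols updated through Entrez identifiers (16205 matched): 16885 of 23232 probes had 1 symbol, 143 several and 6204 none. The sign was turned on arrays with the line in channel 1. limma 3.58.1 (R 4.3.3) was fitted to the 23230 probes with at least 2 arrays in every line, with a coefficient per line and a dye term per kind, and tested on simulated data. Ratios were tested against 0, which leaves out the spread of the control. The members and lists were chosen with earlier results of these data known. All member probes are named, up to 4 called genes a list, and the 5 genes most like each Ccnd2 and Rbl2 probe. Alternatives were other dye terms, centring, scaling, moderation and channel orders, a replicate block, each kind alone and each array left out.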

Additional observations from a re-analysis of the deposited data

Results flagged for a closer look

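Rbl2 (probe 17514) differed between the kinds of perturbation: overexpression minus knockdown was 2.38 ± 0.17 on the turned log2 scale (SE, n = 7 arrays each), past the threshold in limma over all probes. The fitted values behind it were -0.22 in Sir2OE2, -0.19 in Sir2OE1, -2.60 in Sir2KD2 and -2.57 in Sir2KD1. The contrast was known when the genes were chosen, and the kinds have different controls, vectors and G418 doses, which cannot be told apart from Sirt1 itself.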

How the results depend on the processing

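Of 1056 values of single member probes under the alternatives, 1005 kept their direction and side of the threshold or moved by less than 1 SD. Among the rest, 30 lost their call on the same side, and 4 called values changed sign. Without a call, 17 moved by 1 SD or more, and 0 gained a call. Uncalled values that crossed 0 were not counted as sign changes. The 1005 are no measure of stability. Undoing the centring or leaving out an array of the other kind could not move a fitted value. Values without a call counted as kept unless they moved by 1 SD or gained a call. Over 23 turned alternatives, Ccnd2 probe 18010 was called in 19 for Sir2OE2, 16 for Sir2OE1, 17 for Sir2KD2 and 23 for Sir2KD1. For probe 21619 the counts were 23, 17, 22 and 23 in the same order. Some calls were kept under all alternatives that tested single lines, other than leaving the values unturned. They were the Rbl2 calls in both knockdown lines, both Ccnd2 calls in Sir2KD1 and that of Ccnd2 probe 21619 in Sir2OE2. Since the deposited values sum to 0 per probe over 6 arrays of each kind, 3 in each channel order, unturned means are held near 0 and the following losses and sign changes were largely fixed by that centring. Taking the values as line over control already gave 0 called member probes in each of the 4 lines and for overexpression minus knockdown. It turned Ccnd2 to 0.151 on probe 21619 in Sir2OE1, 0.251 on probe 18010 in Sir2KD1 and 0.0384 on probe 21619 in Sir2KD2, and Rbl2 to 0.0216 in Sir2KD1. With only the arrays of a kind in the fit, which leaves fewer residual degrees of freedom, 1 member probe was called in Sir2OE2, 0 in Sir2OE1, 1 in Sir2KD2 and 3 in Sir2KD1. With the knockdown ratios the other way up, 3 were called for overexpression minus knockdown. With the line as the replicate, an alternative chosen after seeing the data, 0 were called for either kind. Leaving out 1 array gave 1 to 2 called member probes in Sir2OE2, 0 to 2 in Sir2OE1, 2 to 3 in Sir2KD2 and 3 in Sir2KD1, 0 for both differences between lines, and 1 for overexpression minus knockdown.

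With slide number as a replicate block, 2, 0, 3 and 3 member probes were called in Sir2OE2, Sir2OE1, Sir2KD2 and Sir2KD1. Over 19 pairs the same number gave r from -0.377 to 0.0741, and 1 array correlated best with its own number. Between the kinds r ran from -0.0195 to 0.0113, so no pairing by number was seen there. Within a kind the centring over 6 arrays itself shapes r, so pairing there could not be judged. Counts over all probes moved more. In Sir2OE2, Sir2OE1, Sir2KD2 and Sir2KD1 they were 653, 247, 312 and 833. Without a dye term they were 1190, 628, 810 and 1867, and with the block 428, 77, 181 and 180. One dye term for all arrays gave 406 in Sir2OE1, 541 in Sir2KD2 and 1315 in Sir2KD1. Scaling gave 1017 in Sir2OE2 and 404 in Sir2KD1, and the kind alone 104, 65 and 219 in Sir2OE1, Sir2KD2 and Sir2KD1. Unturned values gave 0, 0, 0 and 12. Leaving out 1 array gave 317 to 675, 47 to 222, 149 to 325 and 523 to 835. For Sir2OE2 minus Sir2OE1 the count was 75 and ran from 0 to 282, for Sir2KD2 minus Sir2KD1 it was 160 and ran from 1 to 576, and for overexpression minus knockdown it was 617 and ran from 0 to 1317. The causes were not tested. Signal over background is not in the values, so dim probes could not be told from bright ones.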
